A study of Mus musculus with 16 samples.

Results

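The genes described here encode antiviral effectors that type I interferon induces, and they were followed across the hearts of mice lacking Clpp, Fgf21 or both. A list of 38 gene symbols defined the set, and rows of the count table were taken where the symbol was equal. Of these, 37 were found among 36499 gene entries, and the symbol Isg15 was not analysed here. All 37 passed the filter on low counts and belong to the 15255 genes tested.

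RNA from cardiac tissue of mice on normal chow was sequenced as mRNA libraries, 4 for each of 4 genotypes. Wild-type mice (wt) carried neither deletion. Clpp KO mice lacked Clpp in the whole body; floxed Clpp was deleted with a Cre driven by the β-actin promoter, and heterozygotes were crossed to homozygosity. Double KO mice lacked Clpp and Fgf21 after both floxed genes met the same Cre. The labels do not give how the single Fgf21 KO was made, nor age or sex, nor whether each library is a different animal. The p-values thus rest on the spread from library to library, which may be technical. CLPP is a mitochondrial protease, and FGF21 is a hormone that stressed tissues release. The series asks what FGF21 does in the heart when mitochondria are mildly impaired.

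Type I interferon binds a receptor on the cell surface and activates transcription factors in the cell, which bind a promoter sequence known as the interferon-stimulated response element (ISRE). The induced effectors act at different steps: IFIT proteins bind foreign RNA, OAS enzymes sense double-stranded RNA, Mx GTPases trap viral particles, and others tag proteins with ISG15 or ADP-ribose.

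Promoter sequence is given first for a selection of members, all chosen because the core of the response element lies before their start; members without it are not shown, including Oasl1, Lgals3bp and Ifit2, which rose strongly. The near-identical pairs are shown to compare their copies. RefSeq promoters of GRCm38.p6 (250 bases before to 50 bases after the start) matched 28 of the 37 members, with 33 promoters in all. The core of the element was searched as GAAANNGAAA on both strands, where N is any base and copies may overlap. Capitals mark the core or its reverse complement. Each stretch runs 5′ to 3′ on the strand of the gene. The genes lie on chromosome 19 plus strand (Ifit1, chr19:34640770-34640833; Ifit3, chr19:34583358-34583436; Ifit3b, chr19:34607754-34607832), chromosome 5 minus strand (Oas1a, chr5:120907526-120907560; Oas1g, chr5:120887614-120887646; Oas3, chr5:120777705-120777749) and chromosome 12 minus strand (Rsad2, chr12:26456543-26456587).
Ifit1: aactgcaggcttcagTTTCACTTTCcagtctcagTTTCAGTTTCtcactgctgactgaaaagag
Ifit3: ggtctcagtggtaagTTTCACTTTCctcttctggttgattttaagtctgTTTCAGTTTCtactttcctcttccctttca
Ifit3b: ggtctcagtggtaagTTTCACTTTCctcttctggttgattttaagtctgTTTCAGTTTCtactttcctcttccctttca
Oas1a: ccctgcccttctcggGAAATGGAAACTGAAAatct
Oas1g: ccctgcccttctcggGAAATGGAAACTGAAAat
Oas3: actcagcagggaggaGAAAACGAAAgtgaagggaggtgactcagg
Rsad2: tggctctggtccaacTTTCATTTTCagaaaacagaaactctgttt

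Ifit1, Ifit3, Ifit3b, Oas1a and Oas1g each show 2 copies, and in Oas1a and Oas1g these overlap. The copy nearest the start begins 85 bases before it in Ifit1, 122 in Ifit3, 154 in Ifit3b, 14 in Oas1a and 12 in Oas1g. The stretches of Ifit3 and Ifit3b are identical over 79 of 79 bases, and those of Oas1a and Oas1g over 33 of 33 compared. Apol9a and Apol9b share the run TTTCAGTTTCCATTTC, which also holds 2 overlapping copies. At least 1 core was found in 15 of 33 promoters of members (45.5%), against 3.44% of 32851 promoters in the whole table. Counted by gene, it was in 12 of 28 members (42.9%), against 3.99% of 27025 genes. The element of the interferon gamma pathway, TTCNNNGAA on both strands, was in 6 of the 33 (18.2%), against 8.3% of all. A match is a description of the letters, and the absence of one says only that they are not in this window.

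The libraries were checked before the genes were compared. Totals ran from 36260545 to 51820727 counts. Markers of ventricular cardiomyocytes were high in all 16, at 22727 to 48398 CPM in sum. Clpp had 1435 to 2636 counts in the 8 libraries with the gene and 267 to 355 in the 8 without it, and the 8 libraries labelled without Fgf21 had 0 counts of it. Counts of Fgf21 in the other 8 are not given here, so the 0 alone does not check the Fgf21 labels. Wild-type replicates 2 and 4 stood apart: markers of atrial cardiomyocytes summed to 9881 and 6285 CPM there and to 79.1 and 73.0 CPM in replicates 1 and 3. Markers of macrophages and monocytes summed to 236 and 215 CPM there, against 129 and 127 CPM. Replicate 2 also stood low for genes of the Y chromosome, at 2.29 CPM against at least 35.3 CPM in each of the others. Wild-type replicates 1 and 3 were the most alike pair of the series (chi-square per degree of freedom 5.98, Spearman correlation 0.997). The next lowest chi-square was 24.8, for Clpp KO replicates 2 and 3. Replicates 1 and 3 of wild type still differed beyond sampling noise, but 2 libraries of 1 heart can do so too. Whether they are separate hearts cannot be told, and both were kept. Results without wild-type replicates 2 and 4 may thus rest on 1 wild-type heart. Results are given with and without wild-type replicates 2 and 4 where these decide them. Messages of mitochondrial DNA made up 56.1% to 60.8% of counts in the 8 libraries without Clpp and 25.5% to 39.4% in the others. With TMM computed without those genes 20 members were called in Clpp KO and 29 in double KO against Fgf21 KO, against 20 and 30 with them. Of all genes 1.65% and 0.872% were called without them, against 1.63% and 0.892% with them. Levels below are in CPM, the usual count relative to the library total, scaled by TMM, the trimmed mean of M-values.

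In the heart without Clpp, most of the antiviral effector genes were higher: 35 of 37 had a log2 fold change above 0 when Clpp KO was set against wild type and 37 in double KO against Fgf21 KO with TMM scaling, and 19 and 30 with library size alone. With TMM 20 members were called higher in Clpp KO (0 lower) and 30 in double KO against Fgf21 KO (0 lower). A gene is called where edgeR's quasi-likelihood test gave an adjusted p below 0.05 (Benjamini-Hochberg over all genes tested). Over all genes 1.63% were called in the first comparison (1.08% higher) and 0.892% in the second (0.826% higher). The median log2 fold change of the members was 0.79 in the first and 1.22 in the second, where the median of all genes was -0.04 and -0.01. Apol9a, Apol9b, the IFIT genes and Oasl1 were among the members with the largest fold changes, while Ifitm3, Ifi27l2a and Ifi35 were not called in either comparison. In whole tissue, more cells of a type and more RNA per cell cannot be told apart.

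**Figure D1:**
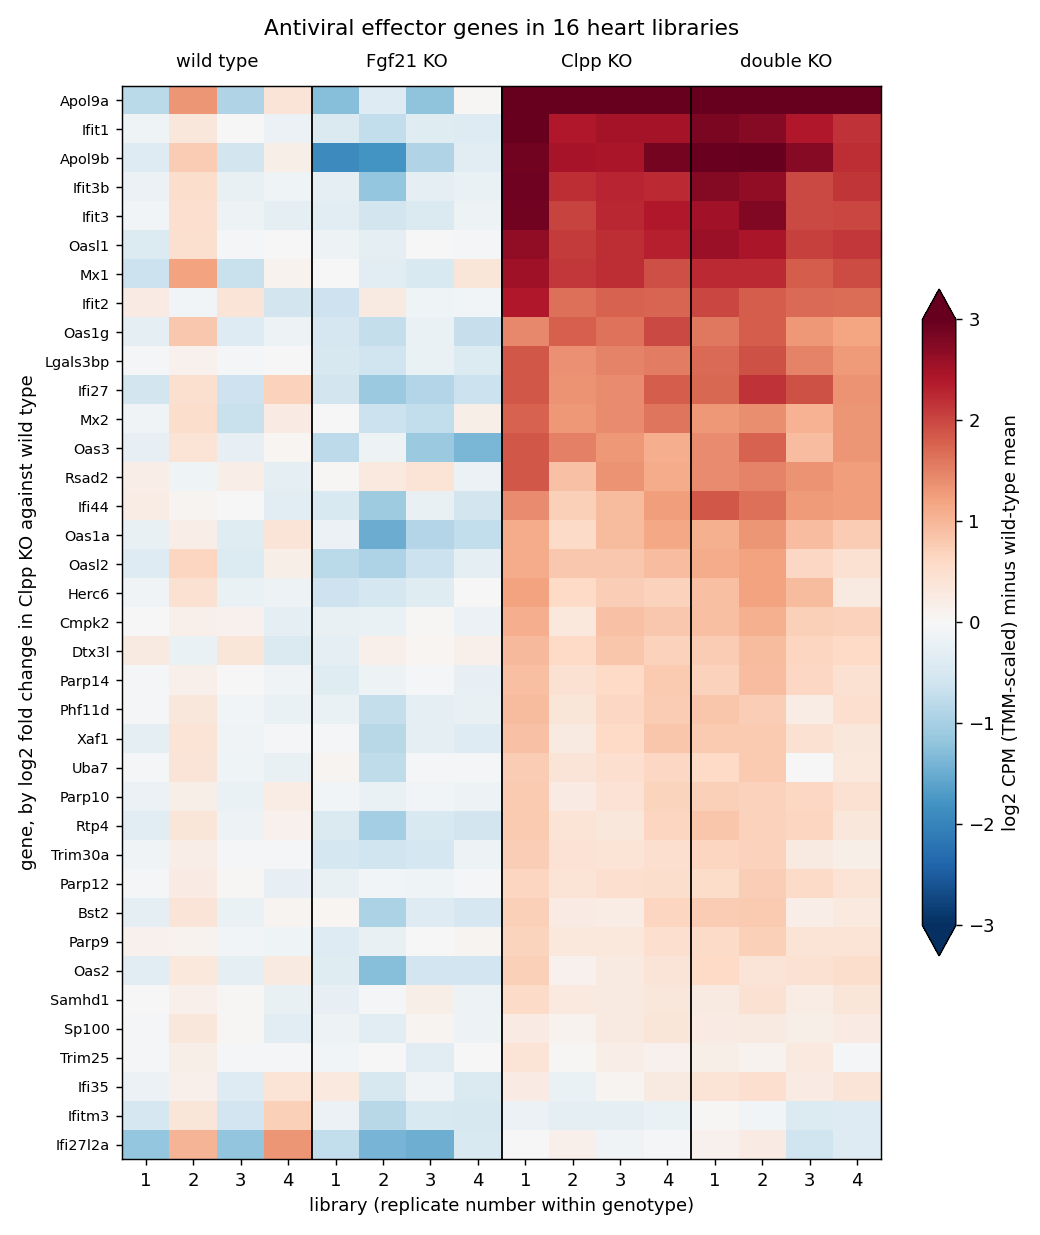
Heat map of the 37 genes (rows, ordered by log2 fold change in Clpp KO against wild type) in 16 libraries (columns, by genotype and replicate number). Colour is the log2 CPM scaled by TMM minus the mean of the 4 wild-type libraries, limited to 3 in either direction; the 8 libraries of Clpp KO and double KO are red for nearly all genes with this scaling (with library size alone 19 and 30 of 37 fold changes for Clpp loss are above 0), and wild-type replicates 2 and 4 are red for Ifi27l2a, Ifitm3 and Ifi27.

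Scaled by library size alone, the median of all genes moved to -0.79 in Clpp KO against wild type and to -0.70 in double KO against Fgf21 KO. Relative to these medians 35 and 37 of the 37 members were still higher. Under that scaling 11 members were called higher and 6 lower in the first comparison and 17 higher and 1 lower in the second, where 78.2% and 71.2% of all genes were called. Of all calls, 0.796% were higher in the first comparison under that scaling and 0.884% in the second, against 66.3% and 92.6% with TMM. Of the members called by TMM, Parp10, Parp12 and Parp14 turned negative in the first comparison and Parp9 in the second.

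IFIT proteins carry tetratricopeptide repeats and hold on to RNA whose cap lacks the methyl marks of the cell's own mRNA. The 4 genes lie in 1 cluster on chromosome 19 (GENCODE M21, GRCm38), all on the plus strand, from Ifit2 at 34550694 to the end of Ifit1 at 34650009. All 4 were called higher in both comparisons, and their log2 fold changes were also above 0 with library size alone. Ifit1 (19:34640871-34650009) was at 2.95, 4.10, 3.22 and 2.87 CPM in wild type replicates 1 to 4 and at 2.40, 1.96, 2.54 and 2.47 CPM in Fgf21 KO. In Clpp KO it was at 27, 17.3, 18.4 and 18.5 CPM and in double KO at 23.2, 21.7, 17.4 and 14.6 CPM. Every library without Clpp lay above every library with it, and Clpp KO replicate 1 was the highest of all. The log2 fold change of Ifit1 was 2.62 ± 0.18 (SE, n = 4 each, edgeR adjusted p = 9.76e-07) in Clpp KO and 3.04 ± 0.19 (adjusted p = 1.61e-07) in double KO against Fgf21 KO. Ifit3, which binds and stabilises Ifit1 and Ifit2, was at 6.03, 8.99, 5.72 and 5.33 CPM in wild type and 5.11, 4.33, 4.70 and 5.75 CPM in Fgf21 KO. It reached 47.1, 26.2, 30.8 and 33.6 CPM in Clpp KO and 36.7, 44.1, 25.1 and 25.7 CPM in double KO, again with no overlap. Its near copy Ifit3b was at 2.31, 3.79, 2.26 and 2.40 CPM in wild type, 2.13, 1.18, 2.14 and 2.27 CPM in Fgf21 KO, 20.0, 12.3, 12.8 and 12.5 CPM in Clpp KO and 17.8, 16.6, 10.3 and 11.7 CPM in double KO. In Ifit3b too Clpp KO replicate 1 was the highest library and wild-type replicate 2 the highest with Clpp. Log2 fold changes were 2.40 ± 0.22 and 2.73 ± 0.23 for Ifit3 and 2.42 ± 0.25 and 2.87 ± 0.26 for Ifit3b. Since 61.8% of the 31-mers of Ifit3 also occur in Ifit3b, reads can be placed in either; with both counted as 1 gene the log2 fold changes were 2.41 and 2.77. Ifit2, which promotes death of infected cells, rose by 1.88 ± 0.22 and 1.91 ± 0.22.

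OAS enzymes make short chains of 2′-5′-linked adenylate when they meet double-stranded RNA, and these chains switch on RNase L, which degrades RNA. The 6 genes lie on chromosome 5. In Clpp KO 3 of 6 were called higher, and in double KO against Fgf21 KO all 6 were; with library size alone 5 and 6 of the 6 were above 0. Oas1g (5:120876142-120887613) was at 0.586, 1.25, 0.545 and 0.635 CPM in wild type and 0.498, 0.431, 0.620 and 0.438 CPM in Fgf21 KO. Without Clpp it was at 1.94, 2.47, 2.24 and 2.83 CPM in Clpp KO and 2.13, 2.52, 1.77 and 1.64 CPM in double KO. Wild-type replicate 2 stood above the other wild-type libraries, yet below every library without Clpp. Oas1g rose by 1.64 ± 0.26 (edgeR adjusted p = 0.00313) and 2.01 ± 0.27 (adjusted p = 0.000627). Oas1a, its neighbour with 68.7% of its 31-mers in Oas1g, differed by 0.94 ± 0.24 (adjusted p = 0.0603) in Clpp KO and rose by 1.79 ± 0.24 in double KO against Fgf21 KO. Summed, Oas1a and Oas1g rose by 1.10 ± 0.21 (edgeR adjusted p = 0.0121) and 1.84 ± 0.22. Oas3, which senses long double-stranded RNA, was at 0.495, 0.785, 0.494 and 0.615 CPM in wild type and 0.338, 0.529, 0.263 and 0.219 CPM in Fgf21 KO. Its levels in Clpp KO were 2.15, 1.68, 1.46 and 1.26 CPM and in double KO 1.57, 2.03, 1.12 and 1.48 CPM. All 8 libraries without Clpp were higher than all 8 with it. Oas3 rose by 1.45 ± 0.29 (edgeR adjusted p = 0.0155) and 2.19 ± 0.30 (adjusted p = 0.00069). The first call for Oas3 rested on 1 library: without Clpp KO replicate 1 the adjusted p was 0.0622.

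Oasl1, a relative without enzyme activity that is known to restrain translation of Irf7, was at 0.806, 1.49, 1.02 and 1.07 CPM in wild type and 0.961, 0.882, 1.07 and 1.04 CPM in Fgf21 KO. It was at 6.81, 4.59, 5 and 5.44 CPM in Clpp KO and 6.45, 5.87, 4.50 and 4.68 CPM in double KO. The lowest library without Clpp was far above the highest library with it. Oasl1 rose by 2.31 ± 0.19 (edgeR adjusted p = 5.91e-06) and 2.44 ± 0.20 (adjusted p = 3.14e-06), close to equal sizes with and without Fgf21. Oas2 and Oasl2 were called in the second comparison alone: in Clpp KO they differed by 0.37 ± 0.19 (adjusted p = 0.261) and 0.85 ± 0.23 (adjusted p = 0.0716), and in double KO against Fgf21 KO they rose by 1.16 ± 0.19 and 1.52 ± 0.23. Without wild-type replicates 2 and 4 Oasl2 was called in Clpp KO as well (1.34, edgeR adjusted p = 0.00558). Oas2 had 12.3 ± 2.89 CPM in wild type and 15.9 ± 2.84 CPM in Clpp KO (SD, n = 4 each), and the libraries of these groups overlapped.

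Mx proteins are large GTPases that assemble around viral nucleoproteins, and 3 further members act on nucleotides. Of these 5 genes 4 were called higher in each comparison; with library size alone 4 of 5 were above 0 in each, the exception being Samhd1. Mx1 (16:97447035-97462907) was at 0.366, 1.34, 0.358 and 0.615 CPM in wild type and 0.569, 0.451, 0.414 and 0.737 CPM in Fgf21 KO. It was at 3.41, 2.55, 2.70 and 2.23 CPM in Clpp KO and 2.77, 2.78, 2.05 and 2.28 CPM in double KO. Wild-type replicate 2 was the highest library with Clpp and still lay under the lowest without it. Mx1 rose by 2.01 ± 0.35 (edgeR adjusted p = 0.006) and 2.18 ± 0.36 (adjusted p = 0.00333). The first call for Mx1 was lost when only Clpp KO and wild type were fitted. Mx2 (16:97535308-97560900) is annotated as a polymorphic pseudogene. It was at 1.23, 1.93, 0.834 and 1.58 CPM in wild type, 1.32, 0.843, 0.789 and 1.51 CPM in Fgf21 KO, 4.53, 3.29, 3.55 and 4.05 CPM in Clpp KO and 3.31, 3.49, 2.76 and 3.37 CPM in double KO. No library without Clpp was as low as any library with it. Its log2 fold changes were 1.47 ± 0.25 and 1.53 ± 0.25.

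Rsad2 encodes viperin, which makes a nucleotide that ends viral RNA chains, and Cmpk2, next to it on chromosome 12, supplies its precursor. Rsad2 was at 10.9, 8.71, 11.1 and 7.99 CPM in wild type and 9.89, 11.7, 12.7 and 8.48 CPM in Fgf21 KO. Clpp KO libraries held 34.9, 17.6, 24.2 and 20.7 CPM and double KO libraries 25.7, 26.8, 24.5 and 22.9 CPM. Rsad2 was the 1 member whose mean was not lowest in Fgf21 KO, and its wild-type replicates 2 and 4 were the lowest of that group. It rose by 1.33 ± 0.19 (edgeR adjusted p = 0.0011) and 1.22 ± 0.19 (adjusted p = 0.00201). Cmpk2 rose by 0.79 ± 0.15 and 0.99 ± 0.15; its first call was lost without Clpp KO replicate 1 (adjusted p = 0.0543) and without wild-type replicates 2 and 4 (adjusted p = 0.0661). Samhd1, which breaks down the building blocks of DNA, was at 22.5, 24.8, 22.9 and 19.1 CPM in wild type and 18.7, 21.2, 24.9 and 20.0 CPM in Fgf21 KO. It was at 32.8, 27.2, 26.8 and 28.2 CPM in Clpp KO and 26.9, 30.4, 26 and 28.5 CPM in double KO. Its groups did not overlap in either comparison, yet the differences of 0.37 ± 0.11 (edgeR adjusted p = 0.0975) and 0.40 ± 0.11 (adjusted p = 0.164) were not called.

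**Figure D2:**
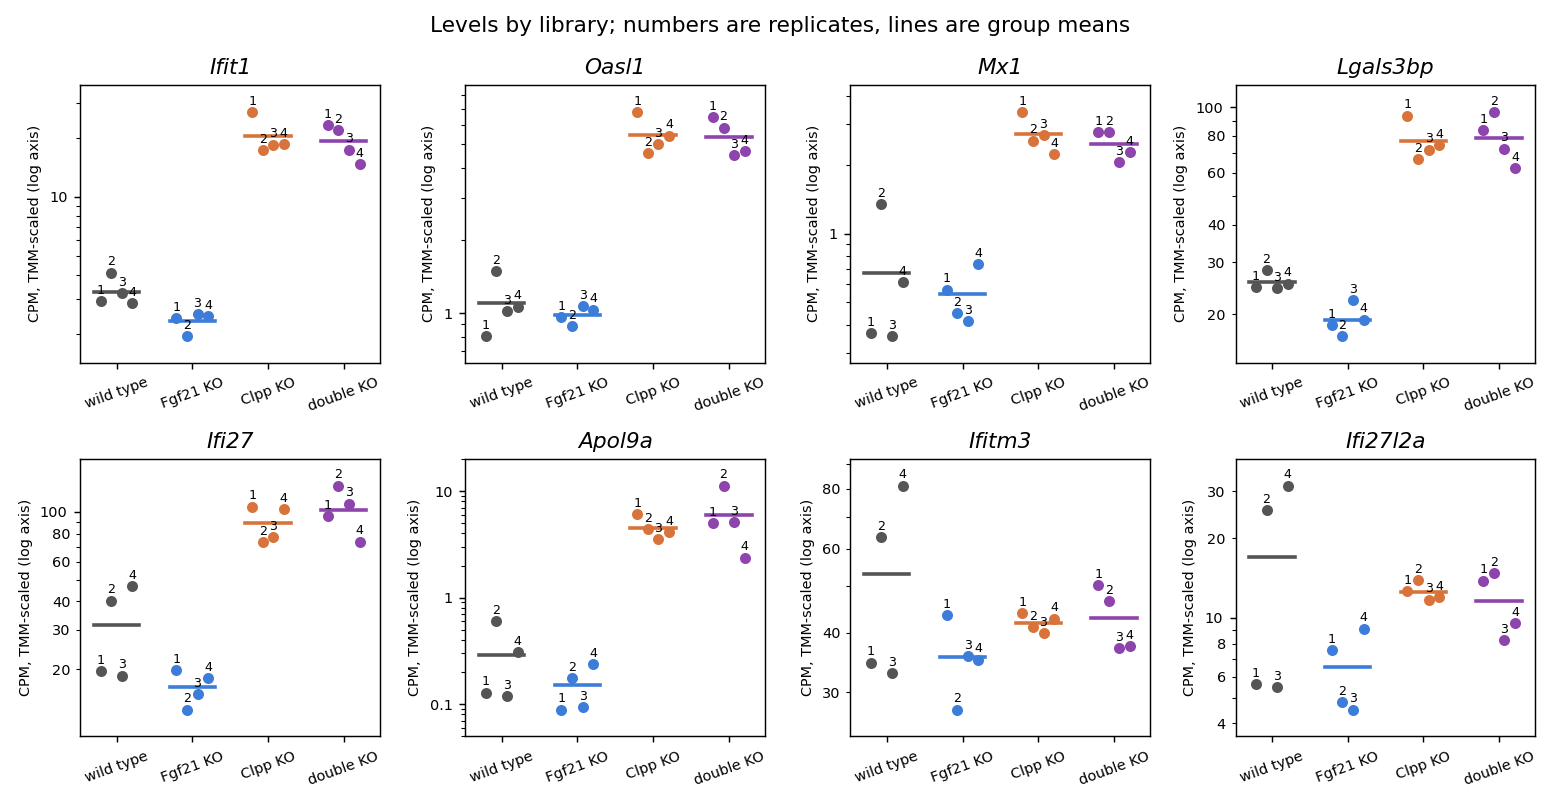
Levels of 8 of the genes in each library (CPM scaled by TMM, log axis), with replicate numbers beside the points and a line at the mean of each genotype (n = 4). Ifit1, Oasl1, Mx1, Lgals3bp, Ifi27 and Apol9a are higher in all 8 libraries of Clpp KO and double KO than in the other 8, while for Ifitm3 and Ifi27l2a wild-type replicates 2 and 4 are the highest of all.

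ISG15 is a ubiquitin-like tag, and 3 members attach it to proteins: Uba7 activates it, and Herc6 and Trim25 act as ligases. In this group 0 of 3 were called in Clpp KO and 1 of 3 in double KO against Fgf21 KO; with library size alone 0 and 1 of the 3 were above 0. Herc6 was at 3.24, 4.78, 3.06 and 3.18 CPM in wild type and 2.26, 2.43, 2.71 and 3.48 CPM in Fgf21 KO. It was at 8.05, 5.28, 5.88 and 5.69 CPM in Clpp KO and 6.61, 8.16, 6.83 and 4.20 CPM in double KO. Double KO replicate 4 lay under wild-type replicate 2, but both comparisons of Clpp loss were free of overlap. Herc6 differed by 0.80 ± 0.21 (edgeR adjusted p = 0.0676) in Clpp KO and rose by 1.25 ± 0.21 (adjusted p = 0.00517) in double KO against Fgf21 KO. Uba7 was at 16.8, 22.8, 15.8 and 14.9 CPM in wild type, 18.3, 10.3, 16.8 and 16.7 CPM in Fgf21 KO, 29.6, 22.5, 24.7 and 26.6 CPM in Clpp KO and 26.2, 30.0, 17.1 and 21.7 CPM in double KO. Trim25 was at 25.7, 30.2, 25.7 and 25.7 CPM in wild type, 25.2, 26.4, 21.6 and 26.9 CPM in Fgf21 KO, 35.4, 27.5, 31 and 29.4 CPM in Clpp KO and 30.2, 28.6, 32.7 and 25.6 CPM in double KO. For Uba7 and Trim25 the groups overlapped in both comparisons. Their differences were 0.55 ± 0.19 and 0.61 ± 0.19 for Uba7 and 0.20 ± 0.11 and 0.23 ± 0.11 for Trim25, none of them called (edgeR adjusted p from 0.139 to 0.705).

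Parp9, Parp10, Parp12 and Parp14 belong to the family that adds ADP-ribose to proteins, and Dtx3l is the ubiquitin ligase that partners with Parp9. Of these 5, 4 were called higher in Clpp KO and 5 in double KO against Fgf21 KO, with small and even sizes: log2 fold changes ran from 0.45 to 0.74 and from 0.66 to 0.89. With library size alone 1 and 4 of the 5 were above 0, so their direction depends on the scaling. Parp14 was at 14.8, 16.7, 14.9 and 14 CPM in wild type and 11.7, 13.5, 14.5 and 12.8 CPM in Fgf21 KO. It was at 28, 20.7, 23 and 25.9 CPM in Clpp KO and 24.4, 28.6, 23.3 and 20.8 CPM in double KO. These groups were narrow and did not overlap. Parp14 rose by 0.69 ± 0.12 (edgeR adjusted p = 0.0049) and 0.89 ± 0.12 (adjusted p = 0.000565). Parp12 was at 13.7, 16.8, 14.4 and 11.9 CPM in wild type, 12.2, 13.3, 12.9 and 13.7 CPM in Fgf21 KO, 22, 18.7, 19.9 and 20.4 CPM in Clpp KO and 20.6, 23.7, 21.1 and 18.8 CPM in double KO. It rose by 0.51 ± 0.11 and 0.69 ± 0.11. Without wild-type replicate 4 or Clpp KO replicates 1, 3 or 4 the first call for Parp12 was lost (adjusted p up to 0.0803).

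Dtx3l was at 10.1, 7.23, 10.7 and 6.23 CPM in wild type and 6.78, 9.23, 8.70 and 9.34 CPM in Fgf21 KO. Clpp KO libraries held 16.4, 12.6, 14.8 and 13.6 CPM and double KO libraries 14.3, 16.1, 13.1 and 12.6 CPM. Here wild-type replicates 2 and 4 were the lowest of their group, not the highest. Dtx3l rose by 0.74 ± 0.16 (edgeR adjusted p = 0.0287) and 0.72 ± 0.16 (adjusted p = 0.0496), and both calls were close to the threshold. The first was lost without wild-type replicate 2 or 4, without both (0.46, adjusted p = 0.172) or without Clpp KO replicate 1, 3 or 4 (adjusted p up to 0.112), and the second in 12 of 16 removals of a library, each of those of Fgf21 KO, Clpp KO and double KO (adjusted p up to 0.21). Parp10 rose by 0.53 ± 0.13 and 0.76 ± 0.13, and its first call was lost in 10 of 16 removals: wild-type replicate 1, Fgf21 KO replicates 1, 3 and 4, Clpp KO replicates 1, 3 and 4 and double KO replicates 1, 2 and 3 (adjusted p up to 0.159). Parp9 differed by 0.45 ± 0.12 (edgeR adjusted p = 0.0705) and rose by 0.66 ± 0.12.

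Membrane and secreted proteins were the most uneven group. In Clpp KO 3 of 6 were called higher and in double KO against Fgf21 KO 5 of 6; with library size alone 3 and 5 of the 6 were above 0. Apol9a and Apol9b, apolipoprotein L proteins of the mouse, were among the members with the largest fold changes, Apol9a first in both comparisons. Apol9a (15:77403789-77411135) was at 0.128, 0.604, 0.119 and 0.307 CPM in wild type and 0.0889, 0.176, 0.0940 and 0.239 CPM in Fgf21 KO. It was at 6.04, 4.41, 3.52 and 4.12 CPM in Clpp KO and 5.01, 11.3, 5.15 and 2.37 CPM in double KO. Wild-type replicates 2 and 4 were above replicates 1 and 3, and double KO replicate 2 was the highest library. Apol9a rose by 3.93 ± 0.52 (edgeR adjusted p = 0.000869) and 5.30 ± 0.57 (adjusted p = 0.000134). Apol9b was at 0.330, 0.739, 0.289 and 0.492 CPM in wild type, 0.107, 0.118, 0.226 and 0.338 CPM in Fgf21 KO, 3.29, 2.45, 2.43 and 3.24 CPM in Clpp KO and 3.47, 6.32, 2.92 and 2.05 CPM in double KO. It rose by 2.61 ± 0.39 and 4.22 ± 0.43. Of the 31-mers of Apol9b 64.9% also occur in Apol9a, and the sum of both rose by 3.28 ± 0.44 and 4.80 ± 0.48.

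Lgals3bp, a secreted glycoprotein that binds galectin 3, was at 24.7, 28.1, 24.6 and 25.4 CPM in wild type and 18.4, 16.9, 22.3 and 19.2 CPM in Fgf21 KO. It was at 93.5, 66.5, 71.8 and 74.3 CPM in Clpp KO and 83.5, 96.3, 72.4 and 62.1 CPM in double KO. It was even among the wild-type libraries, including replicates 2 and 4, and all 4 Fgf21 KO libraries lay under all 4 of wild type. Lgals3bp rose by 1.58 ± 0.14 (edgeR adjusted p = 1.33e-05) and 2.03 ± 0.14 (adjusted p = 6.98e-07). Bst2, or tetherin, holds budding virus on the cell surface. It differed by 0.46 ± 0.21 (edgeR adjusted p = 0.22) and rose by 0.93 ± 0.21, a call lost in 12 of 16 removals: wild-type replicates 3 and 4, Fgf21 KO replicates 2, 3 and 4, all 4 of Clpp KO and double KO replicates 1, 2 and 4 (adjusted p up to 0.183). Rtp4, a chaperone of the Golgi, differed by 0.53 ± 0.17 (edgeR adjusted p = 0.117) and rose by 1.23 ± 0.17.

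Ifitm3 blocks the fusion of virus with endosomes. It was at 34.6, 63.5, 32.9 and 81.3 CPM in wild type and 43.6, 27.6, 35.8 and 35.1 CPM in Fgf21 KO. It was at 43.9, 41, 39.9 and 42.8 CPM in Clpp KO and 50.4, 46.6, 37.2 and 37.5 CPM in double KO. Wild-type replicates 2 and 4 were the 2 highest libraries of the 16, and replicates 1 and 3 lay under all 4 of Clpp KO. The log2 fold change of Ifitm3 was -0.34 ± 0.24 (edgeR adjusted p = 0.403) in Clpp KO and 0.27 ± 0.24 (adjusted p = 0.859) in double KO against Fgf21 KO. Without wild-type replicates 2 and 4 the first turned to 0.32 (adjusted p = 0.493).

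The remaining 8 members work in mitochondria, the nucleus or elsewhere. In Clpp KO 2 of 8 were called higher and in double KO against Fgf21 KO 5 of 8; with library size alone 2 and 6 of the 8 were above 0. Ifi27, a small protein of the mitochondrial membrane, was at 19.6, 40.3, 18.7 and 46.9 CPM in wild type and 19.8, 13.3, 15.6 and 18.3 CPM in Fgf21 KO. It was at 105, 73.2, 77 and 102 CPM in Clpp KO and 95.6, 131, 109 and 73.7 CPM in double KO. Wild-type replicates 2 and 4 stood above replicates 1 and 3 and remained under every library without Clpp. Ifi27 rose by 1.51 ± 0.28 (edgeR adjusted p = 0.00991) and 2.61 ± 0.29 (adjusted p = 0.000144). The first call for Ifi27 was lost when only Clpp KO and wild type were fitted. Ifi27l2a, its relative next to it on chromosome 12, was at 5.63, 25.4, 5.48 and 31.6 CPM in wild type and 7.58, 4.80, 4.51 and 9.12 CPM in Fgf21 KO. It was at 12.6, 13.9, 11.7 and 12 CPM in Clpp KO and 13.8, 14.8, 8.23 and 9.53 CPM in double KO. Clpp KO libraries lay between the low and the high pair of wild type. Ifi27l2a differed by -0.44 ± 0.48 (edgeR adjusted p = 0.602) and 0.84 ± 0.48 (adjusted p = 0.772); without wild-type replicates 2 and 4 the first was 1.18 (adjusted p = 0.0789).

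Ifi44, a cytosolic protein that slows cell growth, was at 3.11, 2.82, 2.69 and 2.13 CPM in wild type and 1.94, 1.27, 2.27 and 1.81 CPM in Fgf21 KO. It was at 7.18, 4.41, 5.18 and 6.35 CPM in Clpp KO and 9.76, 8.41, 6.43 and 6.32 CPM in double KO. Groups did not overlap in either comparison of Clpp loss. Ifi44 rose by 1.10 ± 0.20 (edgeR adjusted p = 0.00925; 0.0826 without wild-type replicates 2 and 4) and 2.08 ± 0.21 (adjusted p = 4.27e-05). Phf11d, a nuclear protein with a zinc finger, was at 6.61, 8.63, 6.44 and 5.96 CPM in wild type, 5.92, 4.20, 5.66 and 5.87 CPM in Fgf21 KO, 13.2, 8.83, 10.5 and 11.6 CPM in Clpp KO and 12.2, 11.5, 8.01 and 9.78 CPM in double KO. It differed by 0.67 ± 0.17 (edgeR adjusted p = 0.0521) and rose by 0.94 ± 0.17. Xaf1, which promotes apoptosis, and Trim30a, a ubiquitin ligase, differed in Clpp KO by 0.64 ± 0.19 (edgeR adjusted p = 0.0887) and 0.53 ± 0.14 (adjusted p = 0.066). They rose in double KO against Fgf21 KO by 0.97 ± 0.19 and 0.90 ± 0.14; the call of Xaf1 was lost without Fgf21 KO replicate 4 or double KO replicate 1 or 2 (adjusted p up to 0.0635).

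The last 2 members of this group were not called in either comparison. Ifi35, a cytosolic protein with a leucine zipper, was at 12.9, 16.3, 11.3 and 19.6 CPM in wild type, 18, 10.6, 13.8 and 10.9 CPM in Fgf21 KO, 17.4, 12.8, 15.5 and 17.7 CPM in Clpp KO and 19.7, 21, 17.5 and 19.2 CPM in double KO. Sp100, a component of nuclear bodies, was at 20.6, 26.5, 21.6 and 16.9 CPM in wild type, 18.9, 16.6, 22.5 and 19.2 CPM in Fgf21 KO, 24.9, 22.6, 25.5 and 27.1 CPM in Clpp KO and 25.1, 25.7, 23.7 and 25.3 CPM in double KO. The groups overlapped in both comparisons for Ifi35 and in the first for Sp100. Differences were 0.08 ± 0.18 and 0.54 ± 0.18 for Ifi35 and 0.22 ± 0.12 and 0.37 ± 0.12 for Sp100, with edgeR adjusted p from 0.293 to 0.819.

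Groups without overlap give a count that does not rest on the fitted model, but it does rest on TMM scaling. Such counts were not made with library size alone. All 4 Clpp KO libraries lay above all 4 of wild type in 27 members, where this held for 7.75% of all genes. All 4 double KO libraries lay above all 4 of Fgf21 KO in 32 members, against 3.88% of all genes. In 23 members all 8 libraries without Clpp were above all 8 with it, which 1.24% of genes tested showed. Compared with wild-type replicates 1 and 3 alone, all 4 Clpp KO libraries were higher in 36 members, Ifi35 being the exception. The share of all genes was not counted for this, and 4 libraries separate from 2 more easily than from 4. Replicates 1 and 3 were also singled out after the values were seen, so this count is a description only. Leaving out each of the 16 libraries in turn kept 15 of the 20 calls in Clpp KO and 27 of the 30 in double KO against Fgf21 KO in every removal. Without wild-type replicates 2 and 4 together 19 members were called in Clpp KO, 17 of them among the 20. That fit called 1.02% of all genes. Cmpk2, Ifi44 and Dtx3l were lost, and Oasl2 and Oas1a were gained (edgeR adjusted p = 0.00558 and 0.0467). The median log2 fold change was then 0.99, with all 37 above 0, where the median of all genes was -0.0006.

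**Figure D3:**
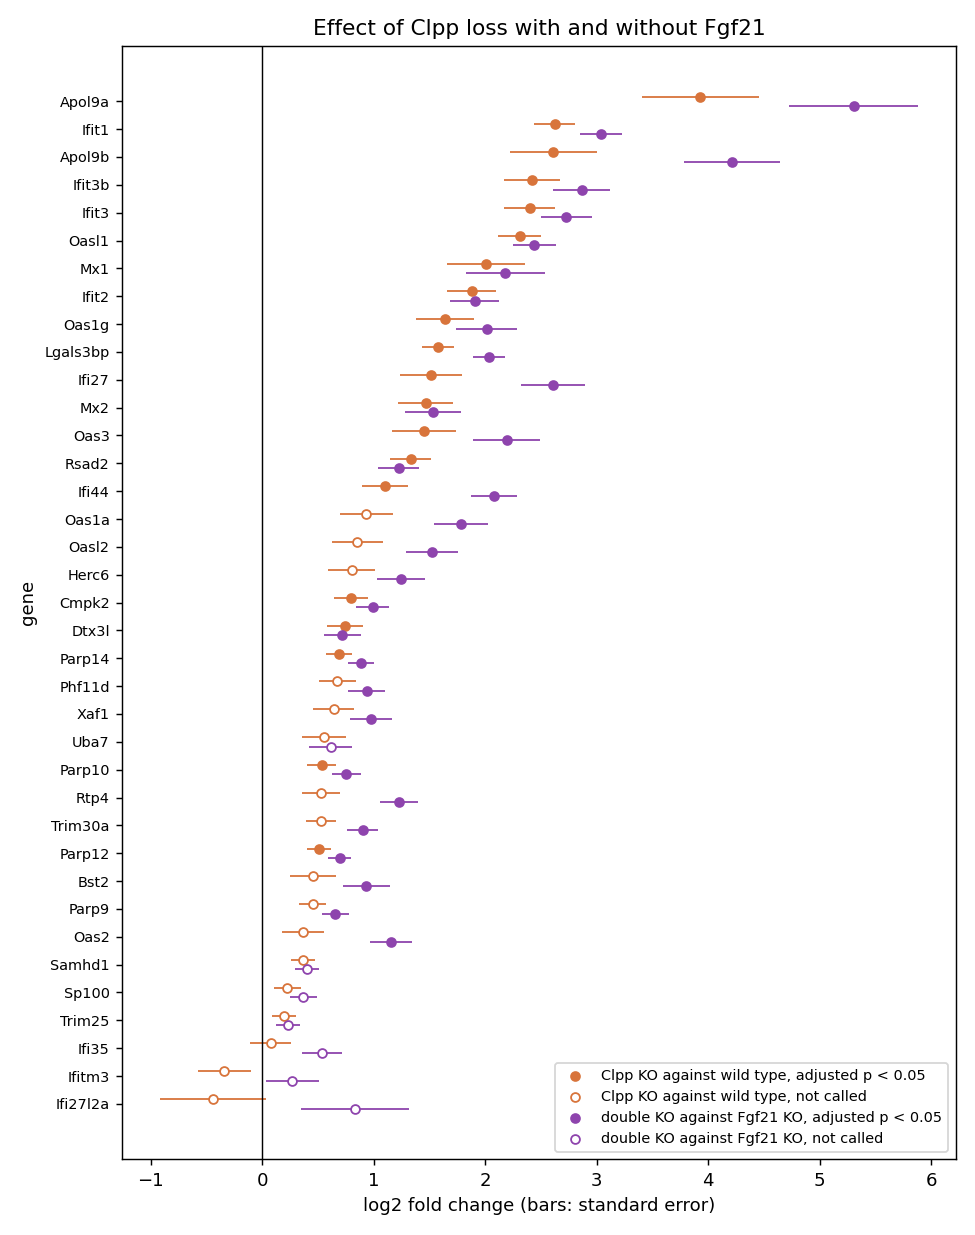
Log2 fold changes of the 37 genes for loss of Clpp with Fgf21 present (Clpp KO against wild type, orange) and with Fgf21 absent (double KO against Fgf21 KO, purple); bars are standard errors and filled points passed an adjusted p of 0.05 (TMM scaling; with library size alone 19 orange and 30 purple values are above 0). The order of the genes is nearly the same in both, and 35 of the 37 purple points lie to the right of the orange ones. Without wild-type replicates 2 and 4 (not drawn) the fold change is larger with Fgf21 absent in 28 of the 37.

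The comparisons with and without Fgf21 share no library. All 20 members called for Clpp loss with Fgf21 present were also called in double KO against Fgf21 KO (100% of the first set and 66.7% of the second), 10 were called in the second alone, and 7 in neither: Samhd1, Uba7, Trim25, Ifitm3, Ifi27l2a, Ifi35 and Sp100. Over all genes 93 of the 249 calls of the first comparison were among the 136 of the second (37.3% and 68.4%). Members made up 12.1% of the higher calls in the first and 23.8% in the second. Fold changes of the 37 members in the first and second comparison had a Pearson correlation of 0.93 (Spearman 0.92), and those of all 15255 genes 0.58 (0.61). These are correlations across genes from 1 fit, and genes are not independent replicates. The fold change was larger without Fgf21 in 35 of 37 members, and in 8100 of all genes tested. Among the members this held for 29 without wild-type replicate 2, 36 without replicate 4 and 28 without both.

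Whether Clpp loss acts differently without Fgf21 was tested by the interaction, the effect of Clpp loss in double KO minus that in Clpp KO. It called 0 members and 0% of all genes with edgeR (7 members and 299 genes at an unadjusted p below 0.05), and 0 members with DESeq2 and with limma voom. The median over members was 0.37, against 0.02 over all genes. Ifi44 had the smallest unadjusted p, with a difference of 0.98 ± 0.29 (edgeR adjusted p = 1.00), followed by Oas2 at 0.79 ± 0.27 and Rtp4 at 0.70 ± 0.24. Without wild-type replicate 2 the median over members was 0.14, and without replicates 2 and 4 it was 0.16. A difference in the response between the 2 backgrounds was therefore not shown for any member, which does not show that the responses are alike.

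Loss of Fgf21 alone gave lower values that were not called. In Fgf21 KO against wild type edgeR called 0 of the 37 members and 0.0459% of all genes. At an unadjusted edgeR p below 0.05 were 15 members and 1399 of the 15255 genes tested. DESeq2 and limma voom also called 0 members. The log2 fold change was below 0 in 36 of 37, with a median of -0.39 against -0.01 for all genes. All 4 Fgf21 KO libraries lay below all 4 of wild type in 6 members (Ifit1, Oas2, Lgals3bp, Rtp4, Trim30a and Phf11d), where 1.57% of all genes did so. Oas2 was at 7.63 ± 1.86 CPM in Fgf21 KO and 12.3 ± 2.89 CPM among wild-type libraries (SD, n = 4 each); the log2 fold change was -0.69 ± 0.19 (edgeR adjusted p = 0.538). Rtp4 was at 3.58 ± 0.607 and 5.51 ± 1.18 CPM, with -0.62 ± 0.17. Wild-type replicates 2 and 4 were the 2 highest wild-type libraries in 21 members and replicate 2 the highest in 26. Without them the median was -0.17, 29 of 37 members remained below 0, and 2 had an unadjusted p below 0.05. Markers of macrophages and monocytes ran from 123 to 161 CPM in Fgf21 KO and from 127 to 236 CPM in wild type. With the mean of these markers as a covariate the median over members was -0.25, 34 of 37 were below 0, 10 had an unadjusted p below 0.05 and edgeR called 0. For this fit and the one without wild-type replicates 2 and 4, unadjusted p-values were not counted over all genes.

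**Figure D4:**
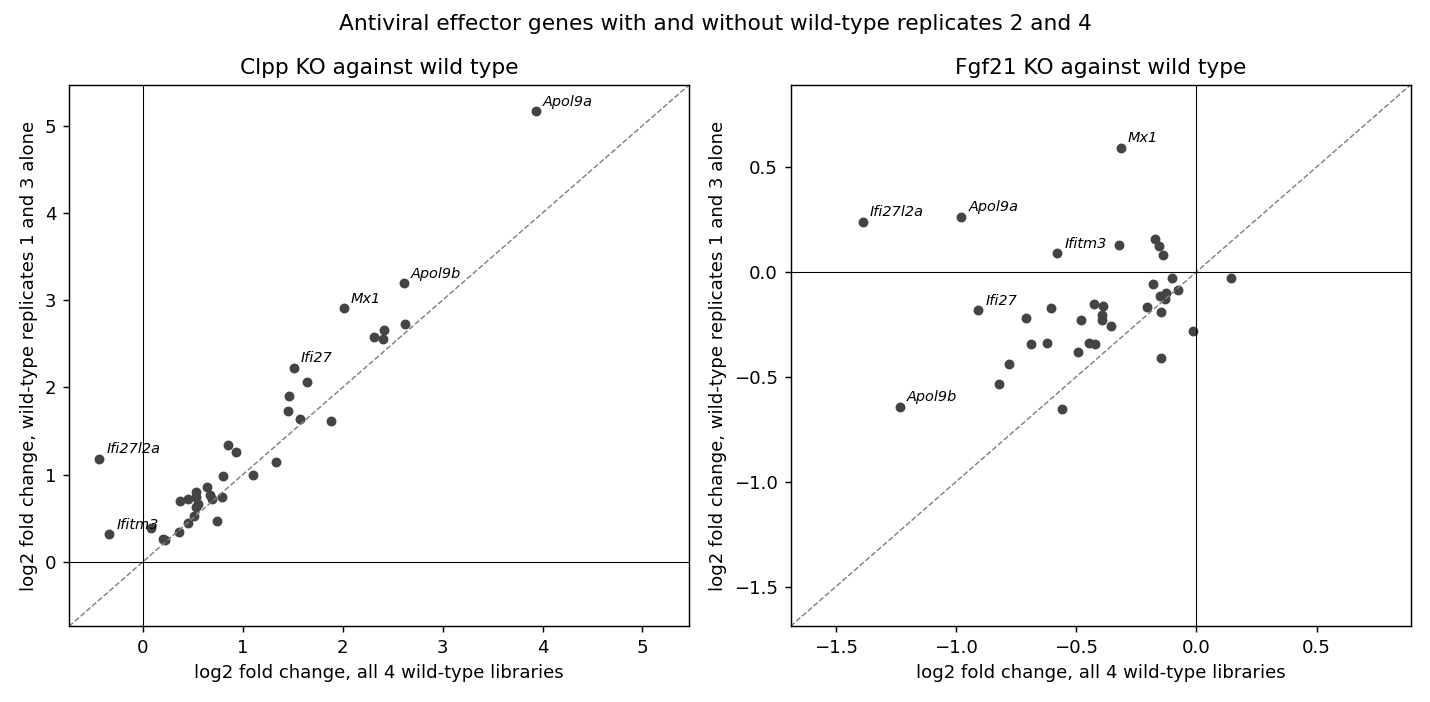
Log2 fold changes of the 37 genes with all 4 wild-type libraries (horizontal axis) and with wild-type replicates 1 and 3 alone (vertical axis), for Clpp KO (left) and Fgf21 KO (right) against wild type; the dashed line marks equal values. On the left all 37 points are above 0 on the vertical axis, including Ifitm3 and Ifi27l2a; on the right most points move towards 0 and 8 lie above it.

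Loss of Fgf21 in hearts that already lacked Clpp gave no called difference in these genes. In double KO against Clpp KO edgeR called 0 members, DESeq2 and limma voom called 0 as well, and 0.059% of all genes were called by edgeR. At an unadjusted edgeR p below 0.05 were 0 members and 542 of all genes. The median log2 fold change was -0.01, the range -0.25 to 0.42, and 17 of 37 were above 0. No member had groups without overlap in either direction, while 5.78% of all genes had. Lgals3bp was at 76.6 ± 11.8 CPM in Clpp KO and 78.6 ± 14.7 CPM in double KO, Ifit1 at 20.3 ± 4.52 and 19.2 ± 3.96 CPM, and Rsad2 at 24.4 ± 7.56 and 25 ± 1.70 CPM (SD, n = 4 each). Against wild type, double KO had 22 members called higher and 0 lower, with a median of 0.82 and 1.53% of all genes called; this comparison shares its libraries with the others. With library size alone it called 10 members higher and 6 lower, with 16 of 37 above 0, a median of -0.15 and 86% of all genes called (0.648% of these higher). The spread of log2 levels within a genotype was widest in wild type, with a median SD over members of 0.31, against 0.27 in Fgf21 KO and 0.24 in both genotypes without Clpp.

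Members with an ISRE core in the promoter window and those without it were compared by their values alone. The 12 with a core had a median log2 fold change of 1.55 in Clpp KO and 2.10 in double KO against Fgf21 KO, with 8 and 11 called higher. The 16 without one had medians of 0.71 and 0.96, with 7 and 11 called. The near-identical pairs (Ifit3 and Ifit3b, Oas1a and Oas1g, Apol9a and Apol9b) are all among the 12. The values of these pairs are thus not separate there. Neither set was uniform: Ifitm3 has 2 copies just after its start and was called in neither comparison, while Oasl1, Ifit2 and Lgals3bp have none in this window and rose by 2.31, 1.88 and 1.58 in Clpp KO.

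Genes around the effectors in the same pathway were taken from lists of signalling genes, sensors, GTPases and antigen presentation. Of 20 signalling genes, 5 were called higher in Clpp KO and 6 in double KO against Fgf21 KO, and 0 lower. Usp18, which removes ISG15 and blocks the interferon receptor, rose by 3.40 ± 0.17 and 3.94 ± 0.17. The transcription factor Irf7 rose by 2.18 ± 0.18 in Clpp KO and by 2.83 ± 0.19 in double KO against Fgf21 KO. Stat2 and Irf9, transcription factors that act at the ISRE and are named here after their values were seen, differed by 0.31 ± 0.13 and 0.42 ± 0.14 in Clpp KO (edgeR adjusted p = 0.206 and 0.121) and rose by 0.69 ± 0.13 and 0.76 ± 0.14 in double KO against Fgf21 KO. Of 18 sensor genes 5 were called higher in each comparison, among them Eif2ak2 (1.02 ± 0.13 and 0.97 ± 0.13), which halts translation on double-stranded RNA, and the RNA helicases Ifih1 (1.22 ± 0.18 and 1.47 ± 0.18) and Ddx58 (0.80 ± 0.15 and 0.94 ± 0.15). Of 19 immunity-related and guanylate-binding GTPase entries 7 were called higher in each; those with the smallest p in Clpp KO were Irgm1, Iigp1 and Irgm2 (1.35 ± 0.16, 1.89 ± 0.26 and 1.77 ± 0.27 in Clpp KO). Of 16 entries of MHC class I and its peptide supply, 6 and 8 were called higher, including B2m (0.95 ± 0.16 and 1.54 ± 0.16), H2-T22 (0.91 ± 0.15 and 1.34 ± 0.16) and the peptide transporter Tap1 (0.85 ± 0.16 and 1.16 ± 0.16). All genes called in these 4 lists were also above 0 with library size alone. By edgeR 0 genes of these lists were called for Fgf21 loss, in either background, or for the interaction.

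The interferons themselves were almost absent. Of 21 interferon genes 5 had any count, 44 counts in all over the 16 libraries and 0 genes past the filter. Ifnz held 28 of them, Ifng 8, Ifnab 4, Ifnb1 3 and Ifne 1. Libraries without Clpp held 0 to 8 of these counts each and libraries with it 0 to 7. At this depth no difference in interferon mRNA could be tested.

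Markers of macrophages and monocytes had 0 of 16 called in either comparison of Clpp loss. Their medians were 0.16 and 0.32, with 13 and 15 of the 16 above 0. Their summed level ran from 177 to 214 CPM in Clpp KO, 131 to 211 CPM in double KO, 127 to 236 CPM in wild type and 123 to 161 CPM in Fgf21 KO. Wild-type replicates 1 and 3 (129 and 127 CPM) lay under all 4 Clpp KO libraries and replicates 2 and 4 (236 and 215 CPM) above them. With the mean of these markers as a covariate 27 members were called in Clpp KO (26 higher, and Ifitm3 lower) and 29 in double KO against Fgf21 KO (all higher), where that fit called 18.6% and 2.03% of all genes. Markers of T and NK cells had 0 of 6 tested genes called, with medians of 0.28 and 0.92 and 5 of the 6 above 0 in each comparison. In double KO against Fgf21 KO 2 of them had an unadjusted edgeR p below 0.05, as had 1081 of all genes tested. Summed levels of the list were 2.33 to 4.34 CPM in Clpp KO, 2.43 to 3.46 CPM in double KO, 1.61 to 2.94 CPM in wild type and 1.35 to 2.01 CPM in Fgf21 KO. Of 11 such markers 5 were under the filter, and the part of these cells in the result was not tested. Markers of plasmacytoid dendritic cells, a main source of type I interferon, summed to at most 1.13 CPM in any library, with 0 of 3 tested genes called. Atrial markers had 0 of 5 called in both comparisons, with medians of -1.75 and -1.53 and all 5 below 0 in each. Their sums in wild-type replicates 1 and 3 (79.1 and 73.0 CPM) lay under all 4 Clpp KO libraries (183 to 3350 CPM). With the mean of the atrial markers as a covariate 26 members were called higher in Clpp KO and 29 in double KO against Fgf21 KO. In that fit 6.51% and 1.02% of all genes were called. Other lists had medians below 0 in Clpp KO: of 4 neutrophil markers tested 2 fell (S100a8 and S100a9, median of the list -1.89), and of 8 endothelial markers 1 fell (Pecam1, median -0.28). All 5 red blood cell markers were lower in every Clpp KO library than in every wild-type library (median -1.65), with 0 called, and 5 fat markers had a median of -3.31, with 0 called. Fat markers summed to 53.6 and 189 CPM for wild-type replicates 2 and 4. For replicates 1 and 3 the sums were 15.2 and 13.7 CPM, against 13.8 to 27.8 CPM in Clpp KO, which is no clear fall. Neutrophil sums were also highest in replicates 2 and 4 (4.72 and 5.23 CPM). Replicates 1 and 3 (2.51 and 1.99 CPM) still lay above all 4 Clpp KO libraries (0.786 to 1.63 CPM). In double KO against Fgf21 KO 0 genes of the neutrophil, endothelial, red blood cell and fat lists were called, with medians of -0.39, -0.17, 0.81 and -1.76. Fibroblast markers had 0 of 6 called in both comparisons of Clpp loss, with medians of -0.22 and -0.02 and 6 and 4 of the 6 below 0. The part of these cells in the results was not tested.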

How the data were processed

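Counts per gene were deposited as whole numbers; per the submitters' processing notes the authors used fastp 0.21.0, kallisto 0.46.1 and GRCm38.p6, with R 4.0.3, edgeR 3.32.1 and DESeq2 1.30.1. How the counts came to be whole numbers was not stated in those notes or in the labels. Per the labels' protocols RNA was extracted with TRIzol and sequenced from stranded mRNA libraries. Groups came from the labels. All 16 libraries entered 1 quasi-likelihood fit (edgeR 4.0.16, robust, R 4.3.3) with TMM scaling (factors 0.674 to 1.83), a filter on low counts (minimum 10, total 15) and 12 residual degrees of freedom. P-values were adjusted by Benjamini-Hochberg over 15255 genes, with 0.05 as threshold; the standard error is the log2 fold change over the root of F. The common biological coefficient of variation was 0.249. DESeq2 1.42.0, limma 3.58.1 with voom, other scalings and filters, a replicate block, covariates and the removal of libraries were tried. The fit was tested on simulated data.

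The members and all gene lists were chosen with earlier results of these data known. Library values are given for the 3 members of each role group with the smallest p in Clpp KO against wild type and for members called in neither comparison of Clpp loss; from each pathway list up to 3 called genes with the smallest p are named, except 1 that is not reported here. Shared sequence was counted as 31-mers in GENCODE M21 transcripts. Same-numbered libraries did not deviate together, so numbers were not used as pairs.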

Additional observations from a re-analysis of the deposited data

Results flagged for a closer look

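In 10 of 148 groups of 4 libraries, 1 library stood apart from the other 3 by Dixon's criterion; chance alone marks about 1 in 20 groups. Clpp KO replicate 1 was highest for Ifit1 (27.0 CPM, others 17.3 to 18.5), Ifit2 (31.3 CPM, others 18.6 to 20.3) and Ifit3b (20.0 CPM, others 12.3 to 12.8). Wild-type replicate 2 was highest for Ifit3b (3.79 CPM, others 2.26 to 2.40), Oas1g (1.25 CPM, others 0.545 to 0.635), Herc6 (4.78 CPM, others 3.06 to 3.24) and Trim25 (30.2 CPM, others all 25.7). Fgf21 KO replicate 2 was lowest for Ifit3b (1.18 CPM, others 2.13 to 2.27) and Phf11d (4.20 CPM, others 5.66 to 5.92). Fgf21 KO replicate 4 was highest for Trim30a (6.85 CPM, others 5.02 to 5.30).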

How the results depend on the processing

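Counts of members called stayed within 1.5 times and medians within 1 SD of the reported value under the alternatives run, except those named here. The median for double KO against Clpp KO had no stable sign: it ran from -0.15 (library size alone) to 0.098 (without Clpp KO replicate 1). With limma voom 36 members were called in Clpp KO and 35 when double KO met wild type, with 18.2% and 6.14% of all genes called; medians were -0.16 for Fgf21 KO and 1.05 for double KO, both against wild type, and in Clpp KO Ifitm3 was at 0.25 and Ifi27l2a at 1.07. With library size alone medians were 0.018 in Clpp KO, 0.54 for Clpp loss without Fgf21 (18 called), -0.65 for Fgf21 KO and -0.15 for double KO, both against wild type. That scaling turned, in Clpp KO, Samhd1 (-0.40), Uba7 (-0.25), Herc6 (-0.0012), Trim25 (-0.58), Parp12 (-0.27), Parp14 (-0.086), Ifi35 (-0.71), Phf11d (-0.12), Sp100 (-0.57), Oas2 (-0.43), Parp9 (-0.31), Parp10 (-0.25), Bst2 (-0.35), Rtp4 (-0.27), Xaf1 (-0.17) and Trim30a (-0.25), and for Clpp loss without Fgf21, Samhd1 (-0.28), Uba7 (-0.064), Trim25 (-0.47), Ifitm3 (-0.41), Ifi35 (-0.15), Sp100 (-0.32) and Parp9 (-0.029). Fitting only the groups compared left 11 calls in double KO against wild type, with 0.384% of all genes called. For Clpp loss that fit called 14 members with Fgf21 present and 29 without it, and 1.03% and 0.975% of all genes. In Clpp KO the calls of Mx1, Cmpk2, Parp12, Dtx3l, Parp10 and Ifi27 were lost there. With the macrophage covariate Ifi35 in Clpp KO was at -0.033 and Ifitm3 for double KO against Fgf21 KO at -0.078. Without wild-type replicates 2 and 4 the Fgf21 KO median was -0.17, and in Clpp KO Ifitm3 was at 0.32 and Ifi27l2a at 1.18. With wild-type replicates 1 and 3 summed Ifi35 in Clpp KO was at -0.0071. Over single removals, in Clpp KO Ifi35 ran from -0.035 (without wild-type replicate 3) to 0.23 (without replicate 4) and Ifi27l2a from -0.73 to 0.042 (the same removals), and the interaction median from 0.14 to 0.45. The causes were not tested.

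Over single removals calls ran from 15 (without Clpp KO replicate 1) to 23 (without wild-type replicate 2) in Clpp KO, 27 to 30 for Clpp loss without Fgf21 and 16 to 23 for double KO against wild type, and stayed 0 elsewhere. The share of all genes called ran, in the same order, from 0.732% to 6.11%, from 0.605% to 1.04% and from 0.827% to 7.19%. A fit with the replicate number as a block called 18 and 28 members for Clpp loss with and without Fgf21, and 0.957% and 0.715% of all genes. Deviations of same-numbered libraries correlated from -0.239 to 0.348 over 24 pairs, and 3 of 16 libraries correlated best with their own number. The 29 alternatives kept 10 of the 20 Clpp KO calls in every case and 17 of the 30 for Clpp loss without Fgf21. Low counts limit Oas1g, Oas3, Oasl1, Mx1, Apol9a and Apol9b in the libraries with Clpp, where levels were under 1.5 CPM.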
